A study of Mus musculus with 6 samples.

Results

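The immediate early genes Fos, Jun, Junb, Maff, Egr1, Egr2, Ier2, Klf2, Klf6 and Myc were followed through an AGO2 immunoprecipitation from mouse macrophages. They were taken by name, as all probes on the array that carry one of these gene names, and this gave 10 genes with 1 probe each, of 34755 genes and 55627 probes. Bone marrow cells were grown for 7 days in medium with L929-conditioned supernatant to give macrophages. Lysates gave 3 kinds of RNA: the starting RNA (input), the RNA that came down on beads with an anti-AGO2 antibody (AGO2-RIP) and the RNA that came down with non-specific IgG (IgG-RIP). The Dicer KO groups are AGO2-RIP, IgG-RIP and input RNA from LysM-Cre, Dicer flox/flox, Apoe–/– mice, and the Dicer WT groups are the same 3 fractions from LysM-Cre, Dicer wt/wt, Apoe–/– mice, all labelled as male and 6 to 8 weeks old. All 6 groups therefore carry LysM-Cre, which puts Cre recombinase in myeloid cells, and lack Apoe, and each group is 1 array. The labels do not say whether the 3 fractions of a genotype came from 1 culture or whether animals were pooled.

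Immediate early genes are transcribed within minutes of a stimulus without new protein synthesis, and their transcripts are short-lived. Most of the members encode DNA-binding proteins: Fos, Jun and Junb form the AP-1 dimers, Maff is a small MAF protein, Egr1, Egr2, Klf2 and Klf6 are zinc finger factors, Myc is a growth regulator that works with Max, and Ier2 is a small nuclear protein. Dicer cuts miRNA precursors, and AGO2 is the Argonaute protein that holds a miRNA on its target transcript, so that AGO2-RIP samples transcripts bound to AGO2 together with whatever sticks to antibody and beads, which IgG-RIP samples alone.

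Several of these transcripts are known targets of miRNAs, and 4 such miRNAs are shown with the seed, bases 2 to 8, in capitals, because the seed is what an AGO2-bound miRNA pairs with. They are RefSeq sequences (GRCm38.p6), 5′ to 3′, and their levels were not analysed here. As background, let-7 and miR-34a act on human MYC, miR-92a acts on human KLF2 in endothelium, and miR-155 acts on Fos in mouse dendritic cells. The 4 seeds differ from each other.
mmu-let-7a-5p: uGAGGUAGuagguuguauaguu
mmu-miR-34a-5p: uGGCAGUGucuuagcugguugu
mmu-miR-92a-3p: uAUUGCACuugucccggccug
mmu-miR-155-5p: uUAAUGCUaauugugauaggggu
The let-7a entry lies at chr13:48538239-48538260 (minus strand), miR-34a at chr4:150068473-150068494 (plus strand) and miR-155 at chr16:84714143-84714165 (plus strand), while miR-92a has copies at chr14:115044476-115044496 (plus strand) and chrX:52741854-52741874 (minus strand). None of the 4 seed sites occurs in the 60 bases of any of the 10 probes (0 matches), which says nothing of the rest of the transcripts.

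Values below are log2 of the processed spot intensity minus the 75th percentile of that array's 59305 non-control spots, so that 0 is the level of a fairly bright spot and 1 unit is a doubling. Between 37.6% and 46.3% of the spots of an array lay well above background, no spot was saturated, and the lowest value well above background ran from -2.62 to -1.94. With 1 array per group no difference between single groups has a replicate check or a p-value, and 2-fold is used as a size alone. The only gauge of error on the array itself is the set of probes printed 10 times, whose spots give an SD of 0.24 to 0.30 log2 for a difference between 2 single spots and leave out culture, precipitation and amplification. Of 9 macrophage markers, 8 were well above background on all 6 arrays, and the list's summed signal, in multiples of the array's 75th percentile, was 884, 1203 and 1287 in KO AGO2-RIP, IgG-RIP and input RNA, against 975, 1083 and 1404 in WT. The summed signals of the neutrophil, lymphocyte, fibroblast and erythroid markers were at most 2.78, and that of the 4 dendritic cell markers, 57.8 to 125, was nearly all Siglech. Of the other dendritic cell markers, Flt3 was above background on 3 arrays, Zbtb46 on 1 and Ccr7 on 0. The exception among the macrophage markers was Lyz2, the gene into which LysM-Cre is inserted, at 3.56, 4.11 and 5.67 in KO AGO2-RIP, IgG-RIP and input RNA, against -4.30, -1.16 and -2.19 in WT, where AGO2-RIP and input were not well above background, and the part of this difference in the results was not tested. Xist was above background on 0 of 3 KO and 3 of 3 WT arrays, and the Y-linked Ddx3y and Eif2s3y on 3 of 3 KO and 0 of 3 WT arrays, against labels that give male mice throughout. Sex and genotype cannot be told apart in any KO minus WT value below. Dicer1 had a level of -0.55 in KO and 0.22 in WT input RNA, from a probe that may lie outside the deleted part and so checks nothing.

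Of the 10 genes, 7 were well above background on all 6 arrays, as were 12316 of all genes (35.4%). Egr2 and Ier2 were above background on 3 arrays each, and Maff on none (0 of 6), so that nothing can be said of Maff beyond values of -4.47 to -3.08 that lie under the lowest bright spot. The spread of a gene over the 6 arrays was narrow for Jun (0.94 log2 from the lowest to the highest array) and Klf6 (1.13), and wide for Klf2 (2.93) and Myc (3.91).

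**Figure D1:**
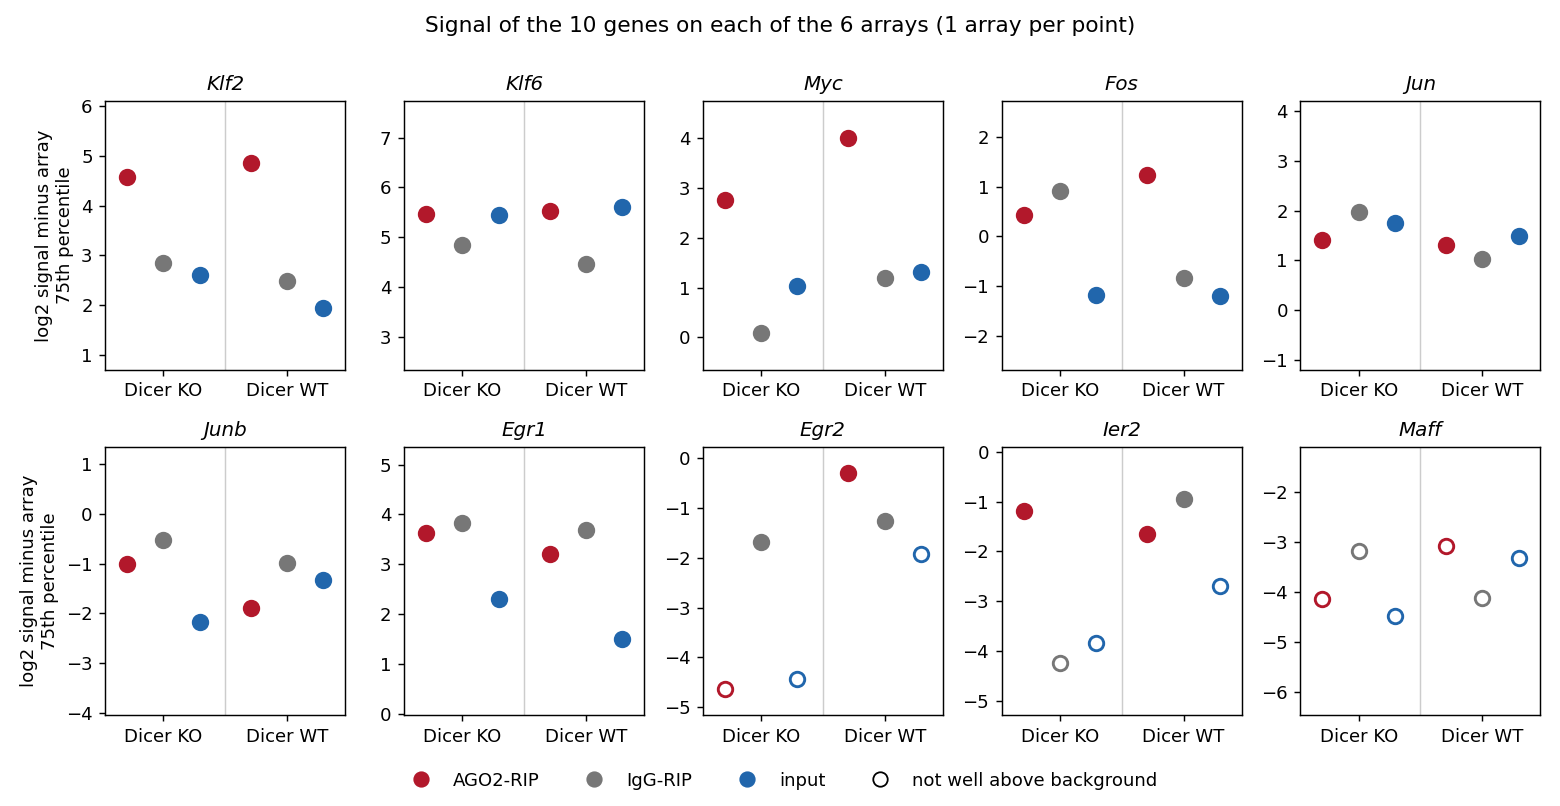
Level of each of the 10 genes on each array, as log2 signal minus the array's 75th percentile (vertical axis, each panel with its own range), for KO at the left and WT at the right. Each point is 1 array, with no error bar because each group has 1 array, and open circles are not well above background. Klf2 and Myc are highest in AGO2-RIP RNA of both genotypes, while Egr1 is high in both precipitates and low in input RNA.

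Klf2, a zinc finger factor known for keeping macrophages and endothelium quiescent, was high in AGO2-RIP RNA of both genotypes. Its probe lies at chr8:74845137-74845196 (mm9, plus strand), from base 1399 of the transcript. Its level was 4.58 in AGO2-RIP, 2.85 in IgG-RIP and 2.61 in input RNA of KO cells. In WT cells it was 4.87 in AGO2-RIP, 2.48 in IgG-RIP and 1.94 in input RNA. Both AGO2-RIP arrays stood above the other 4 arrays, which followed in the order KO IgG-RIP, KO input, WT IgG-RIP and WT input. The gaps from KO IgG-RIP to KO input and from there to WT IgG-RIP were no larger than spot noise, and that from WT IgG-RIP to WT input was larger. AGO2-RIP exceeded IgG-RIP by 1.74 in KO (3.33-fold) and by 2.38 in WT (5.22-fold), and exceeded input by 1.97 in KO (3.91-fold) and by 2.93 in WT (7.62-fold). IgG-RIP differed from input by 0.23 in KO and by 0.55 in WT, and by -0.29 and -0.08 when scaled to the array median. The fractions were also tested over both genotypes with limma, with 2 arrays per fraction, 18888 genes and p-values adjusted over all of them. Klf2 had an AGO2-RIP minus input difference of 2.45 (SE 0.43), which passed at 0.05 (limma adjusted p = 0.0397), and an AGO2-RIP minus IgG-RIP difference of 2.06 (SE 0.43), which did not (limma adjusted p = 0.115). Leaving out an IgG-RIP array keeps the difference from input at 2.45 and changes only its error, so it is no check of that difference. The call against input was lost without either AGO2-RIP or either input array, where the estimates were 2.05 to 2.85. It was also lost with the array median in place of the 75th percentile (2.03, limma adjusted p = 0.0518) and with quantile normalization (2.90, limma adjusted p = 0.0677). It held with normexp, the median over probes, other filters and no genotype term. Against IgG-RIP, where the main fit called 0 of all genes, Klf2 passed with normexp (limma adjusted p = 0.0458) and with genes bright on all 6 arrays (0.0266). It did not with the array median, quantile normalization, the median over probes, no filter or no genotype term.

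The Klf2 promoter is shown because Klf2 and Fos, whose promoter is given further on, were both high in AGO2-RIP over input RNA. The 250 bases before the RefSeq start (GRCm38.p6, chr8:72318812-72319061, plus strand) have the searched motifs in capitals.
Klf2: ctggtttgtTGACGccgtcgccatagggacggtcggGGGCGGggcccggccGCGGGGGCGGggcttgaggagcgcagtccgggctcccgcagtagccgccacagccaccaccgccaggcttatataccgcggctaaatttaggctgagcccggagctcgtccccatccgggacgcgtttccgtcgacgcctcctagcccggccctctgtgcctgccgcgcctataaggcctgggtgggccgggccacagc
Counted back from the start, it holds TGACG, the core of the cAMP response element, at -241, GGGCGG, the GC box, at -214 and -195, and GCGNGGGCG, the EGR motif, at -199, overlapping the GC box at -195. The search took both strands and also covered TATAAA and the serum response element's CArG box. Of 32851 promoters of this length, 17.8% hold TGACG, 32.7% GGGCGG, 4.70% GCGNGGGCG, 12.4% TATAAA and 1.47% the CArG box. Of the 10 genes, 7 have a promoter entry, and of these 5 hold TGACG, 6 GGGCGG, 2 GCGNGGGCG, 1 TATAAA (Fos) and 1 the CArG box (Egr2), at any of their starts. Egr1, Ier2 and Myc were not matched.

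Klf6, a KLF factor linked to inflammatory gene expression in macrophages, did not follow Klf2. Its level was 5.47 in AGO2-RIP, 4.84 in IgG-RIP and 5.44 in input RNA of KO cells, against 5.53, 4.47 and 5.60 in the same fractions of WT cells. The IgG-RIP arrays were the lowest of each genotype, and AGO2-RIP and input RNA differed by 0.03 in KO and by -0.07 in WT, less than spot noise, though the WT value was 0.77 with quantile normalization. AGO2-RIP exceeded IgG-RIP by 0.63 in KO and by 1.06 in WT (2.08-fold). IgG-RIP minus input was -0.60 in KO and -1.13 in WT, but 0.18 and 0.049 with quantile normalization. The limma difference over both genotypes of -0.87 (SE 0.39) did not pass (adjusted p = 0.14). It passed with the array median (-1.44, limma adjusted p = 0.0475) and normexp (-0.97, 0.0261). It did not with quantile normalization (0.11, limma adjusted p = 0.822), the median over probes, other filters or no genotype term.

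Myc, the growth and cell cycle regulator, had the widest range of the 7 genes bright on every array. It was measured by 2 spots of a probe at chr15:61821417-61821476 (mm9, plus strand) that starts at base 1899 of the transcript. Its level was 2.75 in AGO2-RIP, 0.09 in IgG-RIP and 1.03 in input RNA of KO cells, and 4.00 in AGO2-RIP, 1.19 in IgG-RIP and 1.32 in input RNA of WT cells. The AGO2-RIP arrays were again above the other 4, and WT IgG-RIP, WT input and KO input lay close together. AGO2-RIP exceeded IgG-RIP by 2.66 in KO (6.33-fold) and by 2.81 in WT (7.02-fold), so that the WT minus KO difference was 0.15. AGO2-RIP exceeded input by 1.72 in KO and by 2.69 in WT. Over both genotypes the AGO2-RIP minus input difference was 2.21 (SE 0.43) and passed (limma adjusted p = 0.0445), and the AGO2-RIP minus IgG-RIP difference was 2.74 (SE 0.43) and did not (limma adjusted p = 0.0845). Leaving out an IgG-RIP array again keeps the difference from input, at 2.21, and changes only its error. The call against input was lost without either AGO2-RIP or either input array, with estimates of 1.76 to 2.65. It was also lost with the array median (1.78, limma adjusted p = 0.0618), quantile normalization (2.43, 0.0688), no filter on dim genes (2.21, 0.0571) and no genotype term (2.21, 0.053). It held with normexp, the median over probes and genes bright on all 6 arrays. Against IgG-RIP, Myc passed with normexp (limma adjusted p = 0.0442) and with genes bright on all 6 arrays (0.0126). It did not with the array median, quantile normalization, the median over probes, no filter or no genotype term. KO minus WT was -1.25 in AGO2-RIP (2.38-fold) and -1.10 in IgG-RIP (2.14-fold), against -0.28 in input RNA.

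Fos, the AP-1 subunit that dimerises with the JUN proteins, was measured by the most spots, 9 or 10 on each array, of a probe at chr12:86817900-86817959 (mm9, plus strand) that starts at base 1773 of the transcript. Its level was 0.44 in AGO2-RIP, 0.90 in IgG-RIP and -1.18 in input RNA of KO cells. In WT cells it was 1.23 in AGO2-RIP, -0.84 in IgG-RIP and -1.19 in input RNA. Both precipitates were high in KO cells, and AGO2-RIP alone was high in WT cells, while the input arrays, the lowest of the 6, differed by 0.02. AGO2-RIP exceeded input by 1.62 in KO (3.06-fold) and by 2.42 in WT (5.37-fold), with spot SEs of 0.10 each. AGO2-RIP minus IgG-RIP was -0.46 in KO (spot SE 0.06) and 2.07 in WT (spot SE 0.07, 4.21-fold), opposite in sign and far apart in units of spot noise, but with 1 array behind each value. IgG-RIP exceeded input by 2.08 in KO (4.23-fold) and by 0.35 in WT, where the array median gave -0.28. In limma, Fos did not pass for AGO2-RIP minus input (2.02, SE 0.68, adjusted p = 0.107) or AGO2-RIP minus IgG-RIP (0.81, SE 0.68, adjusted p = 0.494). The difference from input passed with genes bright on all 6 arrays (2.02, SE 0.57, limma adjusted p = 0.03). It did not with the other scalings, the median over probes, no filter or no genotype term. The difference from IgG-RIP depended on single arrays. It was -0.03 without the WT AGO2-RIP array and -0.26 without the WT IgG-RIP array. It was 1.64 without the KO AGO2-RIP array and 1.87 without the KO IgG-RIP array. The difference from input stays at 2.02 without either IgG-RIP array, which enters only its error.

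The Fos promoter (GRCm38.p6, chr12:85473640-85473889, plus strand) is given as above, with the motifs in capitals.
Fos: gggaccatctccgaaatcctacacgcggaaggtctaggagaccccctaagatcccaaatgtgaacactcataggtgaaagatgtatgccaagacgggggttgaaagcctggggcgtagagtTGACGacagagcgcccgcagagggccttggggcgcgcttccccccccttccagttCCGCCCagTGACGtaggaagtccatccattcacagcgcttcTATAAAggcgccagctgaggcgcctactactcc
It holds TGACG at -129 and -66, the GC box on the opposite strand at -74 and TATAAA at -33. The CArG box and GCGNGGGCG are not among the letters of this window.

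Jun and Junb, the partners of Fos, mostly did not follow it (Pearson r with Fos over the 6 arrays of 0.15 for Jun and 0.26 for Junb). Jun had levels of 1.41 in AGO2-RIP, 1.97 in IgG-RIP and 1.75 in input RNA of KO cells, against 1.32, 1.03 and 1.49 in the same fractions of WT cells. None of its fraction differences reached 2-fold: AGO2-RIP minus IgG-RIP was -0.56 in KO and 0.29 in WT, and AGO2-RIP minus input was -0.34 in KO and -0.17 in WT. Junb, often a brake on Jun in AP-1 dimers, had levels of -1.01, -0.53 and -2.17 in KO AGO2-RIP, IgG-RIP and input RNA, against -1.90, -0.99 and -1.34 in WT. As for Fos, both KO precipitates were above KO input. The IgG-RIP array was the highest of each genotype, with AGO2-RIP minus IgG-RIP at -0.48 in KO and -0.91 in WT. AGO2-RIP minus input was 1.16 in KO (2.23-fold) and -0.56 in WT, and IgG-RIP minus input was 1.63 in KO and 0.35 in WT, where the array median gave -0.28. The KO values rest on a KO input level near the lowest bright spot of that array (-2.44).

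Egr1, the zinc finger factor induced by growth factors and by bacterial products in macrophages, was high in both precipitates. Its level was 3.62 in AGO2-RIP, 3.84 in IgG-RIP and 2.29 in input RNA of KO cells, against 3.20, 3.69 and 1.49 in WT cells. All 4 precipitates stood above both input arrays, and AGO2-RIP did not exceed IgG-RIP in either genotype (-0.21 in KO and -0.49 in WT). IgG-RIP exceeded input by 1.54 in KO (2.92-fold) and by 2.20 in WT (4.59-fold), and AGO2-RIP exceeded input by 1.33 in KO and by 1.71 in WT. Over both genotypes IgG-RIP minus input was 1.87 (SE 0.40) and passed (limma adjusted p = 0.0287), whereas AGO2-RIP minus input was 1.52 (SE 0.40) and did not (limma adjusted p = 0.0676). The IgG-RIP call was lost without either input array or the WT IgG-RIP array, with estimates of 1.61 to 2.13. It was also lost without either AGO2-RIP array, which keeps the difference at 1.87 and changes only its error, so that is no check of it. With the array median the call was lost as well (1.30, limma adjusted p = 0.0558). The AGO2-RIP minus input difference stays at 1.52 without either IgG-RIP array, which enters only its error. That difference passed with normexp (1.44, limma adjusted p = 0.0156) and with genes bright on all 6 arrays (1.52, 0.0179). It did not pass with the array median (1.10, limma adjusted p = 0.121) or quantile normalization (1.81, 0.0774). Nor did it with the median over probes, no filter or no genotype term.

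Egr2, the relative of Egr1 that takes part in macrophage activation, and Ier2 were too dim for most differences. Egr2 had levels of -4.63 in AGO2-RIP, -1.68 in IgG-RIP and -4.44 in input RNA of KO cells, and -0.30, -1.27 and -1.92 in the same fractions of WT cells, where the KO AGO2-RIP and both input arrays were not well above background. WT AGO2-RIP was 0.96 above WT IgG-RIP (1.95-fold) and at least 3.06-fold above WT input. In KO cells IgG-RIP was at least 1.82-fold above AGO2-RIP, and KO AGO2-RIP was at least 4.72-fold below WT AGO2-RIP. Ier2 had levels of -1.19, -4.24 and -3.83 in KO AGO2-RIP, IgG-RIP and input RNA, and -1.66, -0.94 and -2.70 in WT, with the KO IgG-RIP and both input arrays not well above background. Its KO AGO2-RIP signal was at least 1.95-fold above KO IgG-RIP and at least 2.38-fold above KO input, while WT AGO2-RIP minus IgG-RIP was -0.71. Over both genotypes, mean AGO2-RIP was at least 1.70-fold above mean input for Ier2, and mean IgG-RIP at least 1.63-fold above mean input for Egr2, and limma called neither (adjusted p = 0.218 for Ier2 and 0.201 for Egr2).

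Counted together, the members were on the high side of AGO2-RIP over input RNA. They were chosen with earlier results of these data known, so the counts describe them and test nothing. In KO cells 6 of 8 members with a value or a bound had AGO2-RIP at least 2-fold above input (Klf2, Myc, Fos, Egr1, Ier2 and Junb), where 18.2% of 19070 genes were, and 0 were lower, where 23.7% of genes were. That count was 3 with the array median, with normexp and at 3-fold. It stands without the share of all genes at those settings and shows only that the count moved. Ier2 had a dim input array there and entered by a bound, which could only lie on the higher side. The shares of all genes follow the same rule. In WT cells 5 of 9 were higher (Klf2, Myc, Fos, Egr1 and Egr2), where 16.9% of 17161 genes were, and 0 were lower, against 25.7% of genes. Egr2 and Ier2 entered the WT count in that way too, by bounds that could only be higher. The median difference over the 7 measured members was 1.33 in KO and 1.71 in WT, beside -0.24 over all measured genes in each genotype. Against IgG-RIP in KO, 2 of 9 members were higher in AGO2-RIP (Myc and Klf2) against 13.2% of 18664 genes, and 0 were lower against 11.5%. The members' KO median of -0.21 lay beside -0.19 for all measured genes, so that the group as a whole showed no shift there. In WT 4 of 9 were higher (Myc, Klf2, Fos and Klf6) against 21.9% of 18621 genes, and 0 were lower against 24.8%, with a median of 0.96 over 9 measured members beside -0.24. The comparisons of a genotype share arrays, so that a high AGO2-RIP array or a low input array enters more than one of them.

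IgG-RIP itself differed from input RNA at 2-fold for some members, a smaller share of them than of all genes in each genotype. In KO cells 3 of 8 were at least 2-fold higher in IgG-RIP than in input (Fos, Junb and Egr1), beside 22% of 18500 genes, and 0 were lower, beside 27.1%. In WT cells 1 of 9 was higher (Egr1), beside 23% of 18586 genes, and 1 was lower (Klf6), beside 32.7%. At 2-fold, Egr1 was thus the member above input in IgG-RIP of both genotypes, and Klf2 and Myc differed from input there by -0.94 to 0.55. In the limma fit over both genotypes, called at an adjusted p of 0.05, 2 members were higher in AGO2-RIP than in input (4.23% of 18888 genes were) and 0 were lower (5.32% of genes). One was higher in IgG-RIP than in input (14.3% of genes), and 0 were lower (15.9%). For AGO2-RIP against IgG-RIP limma called 0 members and 0 of all genes (0% in each direction), where 3568 genes had an unadjusted p under 0.05. The fit has 2 residual degrees of freedom, and what serves as its error is how far the fraction differences vary between the genotypes.

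**Figure D2:**
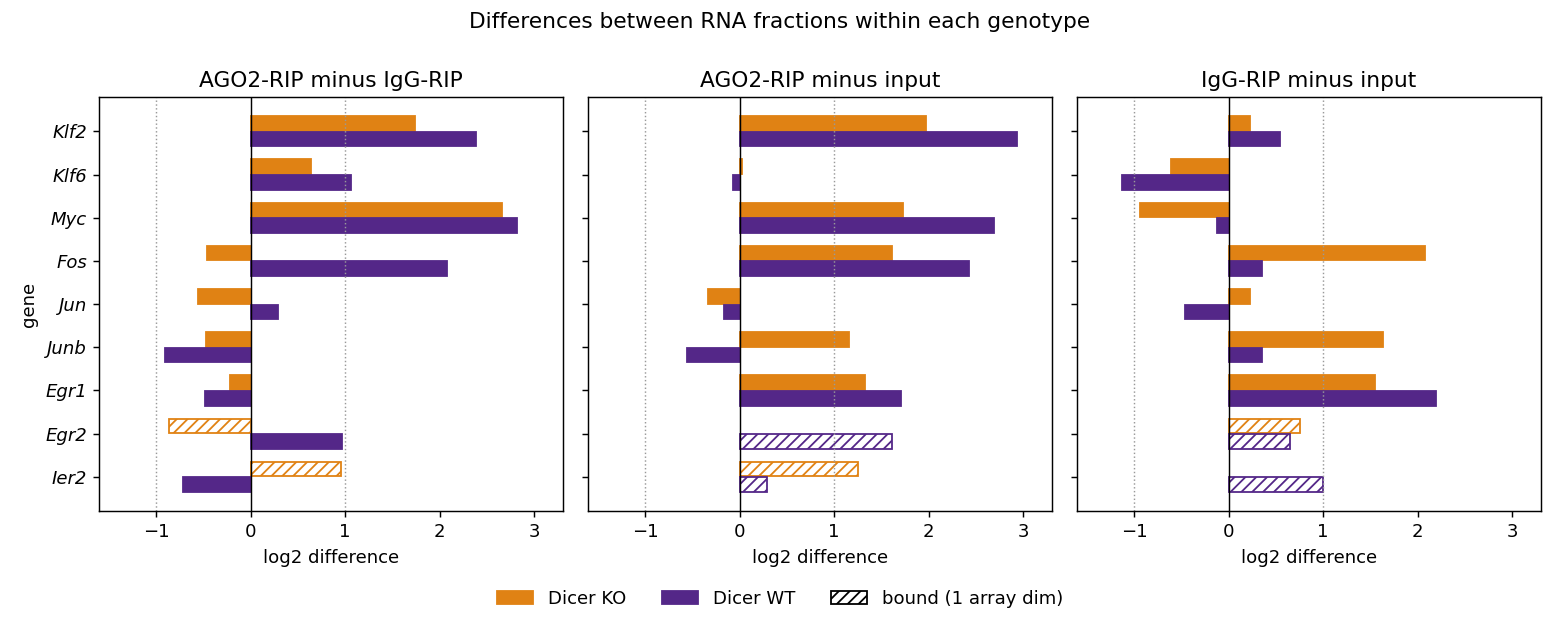
Log2 differences between RNA fractions (horizontal axes) for the 9 genes with a value, with KO above WT in each pair of bars, 1 array per group and no error bar. Hatched bars are bounds where 1 array was dim, and dotted lines mark 2-fold. Klf2 and Myc extend to the right over IgG-RIP and over input RNA in both genotypes, Egr1 does so over input RNA, and Fos lies left of 0 in KO and right of 0 in WT over IgG-RIP.

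Between genotypes, no member measured in input RNA reached 2-fold, a size that few genes reached there. Of the 7 members measured there, 0 were at least 2-fold higher in KO (1.45% of 16083 genes were) and 0 lower (3.11%). The widest input differences, KO minus WT, were 0.81 for Egr1, 0.68 for Klf2 and -0.83 for Junb, each larger than spot noise. They lay above 97.5%, 96.2% and 3.35% of all measured genes. In bulk RNA, fewer cells of a type and less RNA per cell cannot be told apart. In AGO2-RIP RNA 0 of 9 members were higher in KO (9.03% of genes) and 2 lower, Myc and Egr2 (11.4%). In IgG-RIP RNA 1 was higher in KO, Fos at 1.75 (13% of genes), and 2 were lower, Myc and Ier2 (12.2%).

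The WT minus KO difference of AGO2-RIP minus IgG-RIP, in which a positive value means more AGO2-RIP signal over IgG-RIP in WT, was at least 2-fold up for 1 of 7 members, Fos at 2.54 (20.2% of 13995 genes were), and at least 2-fold down for 0 (16.5%). Fos lay above 97.2% of these genes. It was made up of a KO IgG-RIP array 1.75 above the WT one and a KO AGO2-RIP array -0.79 from the WT one. The other 6 members ran from -0.43 for Junb to 0.85 for Jun, with a median of 0.43 over all 7 members beside 0.03 over all genes.

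The members did not move as one group over the 6 arrays. Taking the mean profile of the 7 genes bright on every array, Klf2 (Pearson r = 0.96 over the 6 arrays) and Fos (0.91) followed it, Myc (0.72) and Egr1 (0.61) did so in part, and Klf6 (0.19), Junb (0.10) and Jun (-0.11) did not. Pairs ran from Klf2 with Myc (0.84) and Fos with Klf2 (0.78) to Klf6 with Egr1 (-0.63). These values describe 6 arrays of the same 3 fractions and the members enter their own mean. The 5 other genes whose profiles came nearest the mean were Camsap1 (root mean square distance 0.13 log2, r = 0.97), Ckap5, Nlrp3, Zfp595 and Zfp345. Nlrp3, the sensor of the inflammasome, had levels of 3.38, 2.77 and 2.28 in KO AGO2-RIP, IgG-RIP and input RNA, against 3.74, 2.76 and 2.22 in WT.

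Other immediate early genes, which encode phosphatases, kinases and feedback inhibitors as well as further factors, were higher in AGO2-RIP RNA more often than they were lower. This list of 30 genes, like the other lists, was chosen with earlier results of these data known, so its counts test nothing. In KO cells 9 of 20 genes with a value or bound had AGO2-RIP at least 2-fold above input, and 0 were lower. Of all genes 18.2% were higher and 23.7% lower. In WT 14 of 21 listed genes were higher and 1 lower, where 16.9% and 25.7% of all genes were. The list's medians of 0.79 in KO and 1.73 in WT stand beside -0.24 for all genes. Against IgG-RIP 13 of 21 were higher and 2 lower in KO (13.2% and 11.5% of all genes), and 18 of 23 were higher and 3 lower in WT (21.9% and 24.8%). In limma 5 of 23 tested were higher in AGO2-RIP than in input and 0 lower (4.23% and 5.32% of all genes). Named after their values were seen, these were Dusp2 (5.78), Btg2 (5.30), Per1 (4.36), Dusp1 (3.54) and Plk2 (3.20), with limma adjusted p-values of 0.038 for the other 4 and 0.0388 for Plk2. The WT input arrays of Btg2 and Per1 were not well above background, so their fitted differences are no measured folds. Dusp1, the phosphatase that switches off MAP kinases, had levels of 4.27 in AGO2-RIP, 1.32 in IgG-RIP and 1.20 in input RNA of KO cells, against 5.61, 2.05 and 1.59 in WT. Btg2, an antiproliferative adaptor of mRNA deadenylation, had levels of 3.03, -0.82 and -1.29 in KO, against 4.01, -3.12 and -2.27 in WT, where IgG-RIP and input RNA were not well above background. The lowest of the genes measured on both arrays were Gadd45b (-0.39) and Pim1 (-0.16) for AGO2-RIP minus IgG-RIP in KO, and Nr4a1 (-1.06) and Bhlhe40 (-0.50) in WT. Genes with a dim AGO2-RIP array lay lower still, by bounds of -3.09 or lower for Csrnp1 and -2.55 or lower for Ier5 in KO, and -3.28 or lower for Gadd45b in WT, where Ier5 was again past 2-fold by its bound. They are named here with their values already known.

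In families related to the members, limma called 0 to 2 genes a list for AGO2-RIP over input. Of all genes 4.23% were called higher there and 5.32% lower, so that few or no calls in lists this short say little. In the AP-1 and ATF list, Fosl2, a Fos relative, had levels of 5.81, 2.61 and 2.91 in KO AGO2-RIP, IgG-RIP and input RNA, against 7.14, 2.01 and 2.87 in WT. It passed for AGO2-RIP over input (3.59, SE 0.57, limma adjusted p = 0.038). Of the 6 tested genes 1 more, Batf, which pairs with JUN proteins, was called lower, but it was bright on the 2 input arrays alone and entered the fit through them, so that nothing is read from its call. Jdp2, a repressor of AP-1, was 2.66 above IgG-RIP in KO and 0.89 in WT, Fosb was at -1.10 in KO and 0.59 in WT, and Jund at 0.68 and 0.25. In the MYC network 1 of 8 tested genes was called, Mxd3, a MAX partner, higher in AGO2-RIP than in input RNA by 2.33 (SE 0.49, limma adjusted p = 0.048). Mnt, another MAX partner, was 2.11 above IgG-RIP in KO and 5.06 in WT, and Max itself 0.31 and 1.49.

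The KLF relatives had 0 of 7 tested genes called for AGO2-RIP over input, with medians of 0.23 in KO and 0.10 in WT. Beside 4.23% of all genes called higher and 5.32% lower, a count of 0 here and below is no result about a list. Klf10 was 1.20 above IgG-RIP in KO and 1.89 in WT, Klf3 0.65 and 1.95, and Klf7 1.22 and -1.0. The MAF and NFE2 relatives had 0 of 8 called. Nfe2l2, the factor of the oxidative stress response, was 1.90 above IgG-RIP in KO and 4.04 in WT, and Bach1, its repressor, 1.89 and 3.21. Of the EGR relatives and their NAB corepressors 0 of 3 were called, and Nab2, which binds EGR proteins and restrains them, was at -1.74 in KO and -0.74 in WT. For the SRF and ETS cofactors and upstream kinases 0 of 12 were called, with Mrtfa at 3.11 in KO and 0.46 in WT for AGO2-RIP minus IgG-RIP. The AU-rich element binding factors, which hold or destroy short-lived transcripts, had 0 of 9 called. Zfp36, which speeds the decay of such transcripts and is itself on the list of immediate early genes, was 2.42 above IgG-RIP in KO and 4.08 in WT, and 0.79 and 2.09 above input.

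The housekeeping transcripts lay on the other side. In AGO2-RIP over input 9 of 12 were at least 2-fold lower in KO (23.7% of all genes) and 7 of 12 in WT (25.7%). In each genotype 1 was higher, Tbp (18.2% of all genes in KO and 16.9% in WT). The medians were -1.29 in KO and -1.18 in WT, beside -0.24 over all genes. Limma called Gapdh lower (-2.24, SE 0.41, adjusted p = 0.0409) and Tbp higher (2.37, SE 0.48, adjusted p = 0.0462). In IgG-RIP against input 9 of 12 of the same list were at least 2-fold lower in KO (27.1% of all genes) and 11 of 12 in WT (32.7%). Limma called 6 of 12 lower there (15.9% of all genes). Against IgG-RIP its AGO2-RIP medians were -0.13 in KO and 0.31 in WT. The scaling is to each array's 75th percentile and the same mass of cDNA went on each array, so all of these are relative levels.

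**Figure D3:**
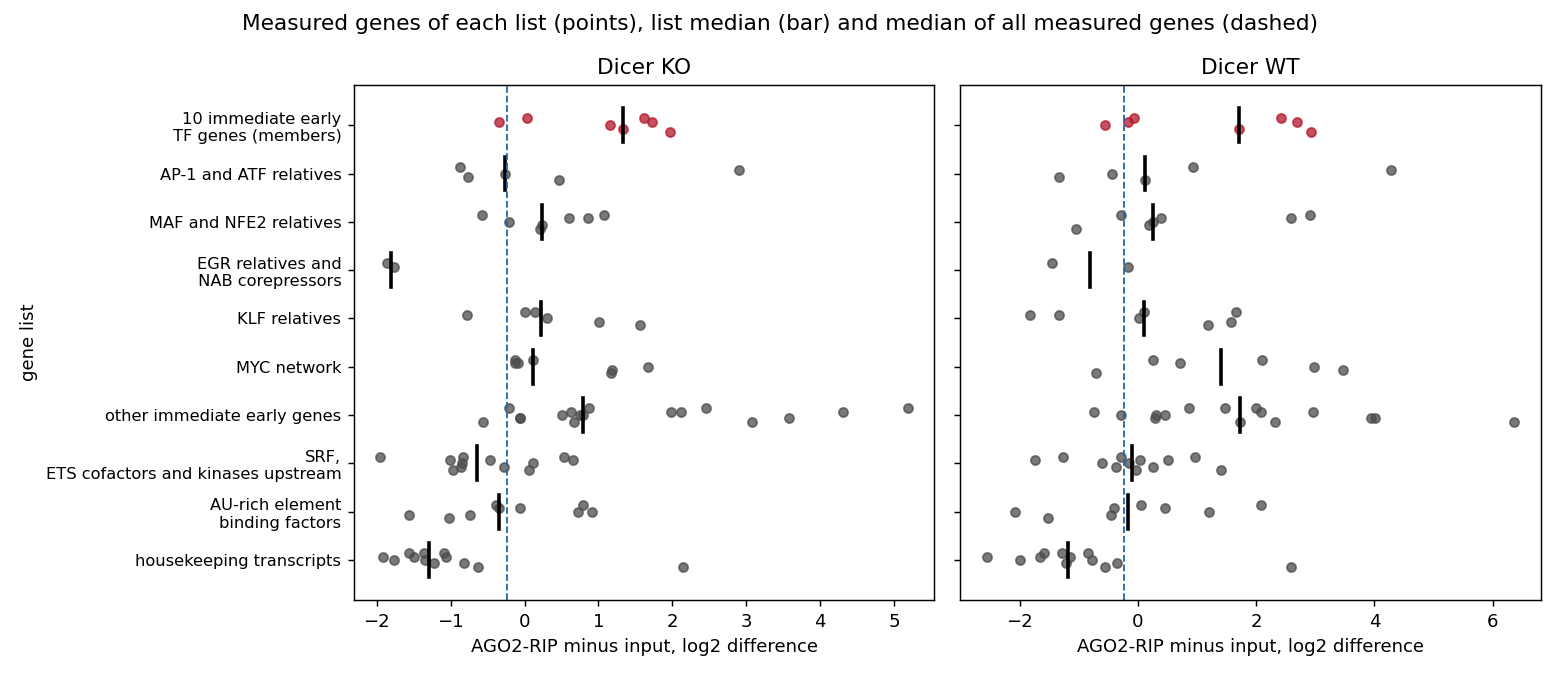
AGO2-RIP minus input in log2 units (horizontal axes) for the measured genes of each list, in KO at the left and WT at the right. Each point is 1 gene, the bar is the list's median and the dashed line the median of all measured genes (-0.24 in each genotype). The 7 measured members have medians of 1.33 in KO and 1.71 in WT, while the housekeeping transcripts lie mostly below -0.24.

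In limma, each of the 9 lists had 0 genes called higher in IgG-RIP than in input, beside 14.3% of all genes, and 15.9% of all genes were called lower. The other immediate early genes had 2 of 23 called lower, Ier3 and Dusp2, a share below that of all genes. The AP-1 and ATF relatives had 2 of 6, Atf3 and also Batf, which was again bright on the input arrays alone. The KLF relatives had 3 of 7, Klf4, Klf11 and Klf16. Klf11 was not well above background on either IgG-RIP array, and Klf4 and Klf16 were not on the KO one. Their fitted differences are thus no measured folds. The EGR relatives and NAB corepressors had 2 of 3, Nab1 and also Egr4, which was bright on the input arrays alone. The MAF and NFE2 relatives and the MYC network had 1 of 8 each. The SRF and ETS cofactors and upstream kinases had 2 of 12, and the AU-rich element binding factors 1 of 9. Ier3 had levels of 1.35 in AGO2-RIP, -4.01 in IgG-RIP and 0.48 in input RNA of KO cells, against 2.56, -4.26 and 1.09 in WT, where neither IgG-RIP array was well above background. Dusp2 showed the same order, at 4.84, -2.75 and -0.35 in KO, against 5.58, -3.30 and -0.79 in WT, again with neither IgG-RIP array well above background. These genes were named after their values were seen. Egr1, by contrast, was higher in IgG-RIP than in input in both genotypes.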

How the data were processed

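Each of the 6 RNAs was hybridised to a 1-colour Cy3 array, and the scans were read with Agilent Feature Extraction 10.7.3.1, per the submitters' processing notes. The intensity used, as deposited, had local background subtracted and spatial trends removed per the file headers, which give mm9 positions, and no scaling between arrays. Per the labels' protocols, beads were incubated for 7 h, the RNA was pre-amplified, and 500 ng of each cDNA was labelled from random primers, steps that can favour some transcripts over others. The authors' files also flag each spot as bright, saturated or an outlier.

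From these, log2 of the processed intensity minus each array's 75th percentile was computed, spots of a probe were averaged, and 54 probes with outlier flags were left out. A gene was represented by its brightest probe, and it was measured where it lay well above background on both arrays. With 1 dim array, the bound set the bright level against the dim array's lowest bright spot, or against the dim level itself where that was higher, and bounds counted at 2-fold. Over both genotypes, limma 3.58.1 in R 4.3.3 fitted terms for fraction and genotype to the 18888 genes bright on 2 or more arrays, with two-sided moderated tests and Benjamini-Hochberg adjustment. The p-values measure the spread between these arrays, which may be technical. Gene names were updated through a RefSeq table, by accession for 27634 probes, by symbol for 3399 and by synonym for 320, and 24274 probes kept the array's name. Motifs were searched in RefSeq promoters (GRCm38.p6). The remaining computation was in Python 3.11.15 (pandas 2.3.3, numpy 2.4.6), and the procedures were tested on simulated data.

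The members and lists were chosen with earlier results of these data known. Named genes were the 10 members, the 2 highest and 2 lowest measured genes of each of 9 lists for AGO2-RIP minus IgG-RIP in each genotype, and the 5 genes nearest the members' mean profile, among genes with an SD of at least 0.5 over the arrays. Not all of the list genes are printed. Alternatives were the array median, quantile normalization, normexp (offset 50), the median over probes, other filters, fold thresholds of 1.5 and 3, no genotype term and leaving out each array.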

Additional observations from a re-analysis of the deposited data

Results flagged for a closer look

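Fos, Jun, Egr2, Ier2 and Junb had fraction differences of opposite sign in the 2 genotypes, each from 1 array per group, and these differences between genotypes were not tested. AGO2-RIP minus IgG-RIP of Fos was -0.46 in KO and 2.07 in WT. The same difference of Jun was -0.56 in KO and 0.29 in WT. That of Egr2 was -0.86 in KO, a bound with a dim AGO2-RIP array, and 0.96 in WT. That of Ier2 was 0.96 in KO, a bound with a dim IgG-RIP array, and -0.71 in WT. AGO2-RIP minus input of Junb was 1.16 in KO and -0.56 in WT.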

How the results depend on the processing

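Of 229 member differences recomputed with the array median, quantile normalization or normexp, 132 moved by less than the spot noise and 17 changed sign: 7 with the array median, 8 with quantile normalization and 2 with normexp. Of those 17, 1 was past 2-fold before, Klf6 for WT IgG-RIP minus input, at 0.049 with quantile normalization. With 1 array per group no value has a replicate check, arrays limit the precision, and the causes of the changes below were not tested. The member counts below stand without the share of all genes at each setting and show only that the counts moved. With the array median, KO AGO2-RIP over input had 3 members higher, KO and WT IgG-RIP against input 2 lower each, IgG-RIP KO against WT 2 higher and 1 lower, and the WT minus KO difference 2 higher, while limma called 0 for AGO2-RIP over input, and 0 higher and 1 lower for IgG-RIP against input, with Klf2 there at -0.19. That scaling moves the median of all genes, for example to -0.78 in KO AGO2-RIP minus input, beside -0.24, and the share of higher among 2-fold calls to 20.3%, beside 43.4%. With quantile normalization, WT IgG-RIP over input had 2 higher and 0 lower, IgG-RIP KO over WT 2 higher, and limma called 0 for AGO2-RIP over input, although its estimates were larger (Klf2 2.90 and Myc 2.43). With normexp, KO AGO2-RIP over input had 3 higher, AGO2-RIP KO against WT 1 lower and IgG-RIP KO against WT 0 in each direction, and limma called 2 for AGO2-RIP over IgG-RIP (Klf2 and Myc) and 1 lower for IgG-RIP against input. With genes bright on all 6 arrays, AGO2-RIP and IgG-RIP KO against WT had 1 lower each, and limma called 2 for AGO2-RIP over IgG-RIP and 4 over input. With no filter, KO AGO2-RIP against IgG-RIP had 1 lower, KO IgG-RIP over input 5 higher, WT IgG-RIP over input 2 higher, input KO against WT 3 lower, and the WT minus KO difference 3 higher and 1 lower, with 1 limma call over input. With no genotype term that count was also 1. At 1.5-fold, KO AGO2-RIP against IgG-RIP had 4 higher and 1 lower, WT 2 lower, KO IgG-RIP against input 2 lower, WT 3 higher, KO against WT 2 higher and 1 lower in input, 1 higher in AGO2-RIP and 2 higher in IgG-RIP, and the WT minus KO difference 3 higher. At 3-fold, KO AGO2-RIP over input had 3 higher, WT IgG-RIP against input 0 lower, and KO against WT 1 lower in AGO2-RIP and 0 lower in IgG-RIP. Leaving out 1 array, limma called 0 to 4 members for AGO2-RIP over input and 0 to 1 for IgG-RIP over input, and Fos AGO2-RIP minus IgG-RIP ran from -0.26 to 1.87. Over all genes, limma called 0 for AGO2-RIP against IgG-RIP in the main setting, 210 higher and 9 lower with normexp, 551 and 42 with genes bright on all 6 arrays, 149 and 14 with no genotype term, and 641 and 112 without the KO IgG-RIP array. For AGO2-RIP against input it called 799 higher and 1004 lower, 0 with quantile normalization, 1134 and 2596 with genes bright on all 6 arrays, 0 without any 1 AGO2-RIP or input array, and 2147 and 2561 without either IgG-RIP array. Leaving out an array of the third fraction keeps a difference between the other fractions and changes only its error. Calls gained in that way are no check of the difference. The labels give no replicate numbers, and the genotype term already compares the fractions within each genotype.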
